A study of Mus musculus with 15 samples.

Results

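Pax9, Msx1, Osr1 and Osr2 are 4 transcription factor genes of the developing mouse palate, and they were followed here through the growth, fusion and ossification of the secondary palate. They were taken by name from a deposited table of counts for 54232 genes, after its gene identifiers had been matched to symbols, and all 4 were found and passed the filter on low counts. Messenger RNA was measured by bulk RNA sequencing of dissected secondary palates of wild-type (WT) mice of 4 embryonic ages, written E13.5, E14.5, E15.5 and E16.5 for days of gestation, and of newborn mice (P0). Each of the 5 stages had 3 libraries, and each library held the pooled palates of 3 embryos. No mutant, treatment or other tissue entered these comparisons, and strain and sex are not given in the sources used here. Because each library was a pool, the p values below measure the spread between pools.

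Pax9 carries a paired box, Msx1 a homeobox, and Osr1 and Osr2, the vertebrate relatives of fly odd-skipped, carry zinc fingers. The 4 proteins act in the mesenchyme of the palatal shelves, which comes from cranial neural crest, where they take part in exchanges of Bmp, Fgf, Wnt and Hedgehog signals with the overlying epithelium. Mouse mutants of Pax9, Msx1 or Osr2 have cleft palate, those of Pax9 and Msx1 also have arrested tooth buds, and Osr1 is best known for its part in heart and kidney development.

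Osr1 and Osr2 are close relatives, and the stretch of their zinc finger coding sequence in which they are most alike shows how far reads can tell them apart. The sequences below are 90 coding bases each, 5′ to 3′, with the bases that differ in capitals (GRCm38, plus strand).
Osr1: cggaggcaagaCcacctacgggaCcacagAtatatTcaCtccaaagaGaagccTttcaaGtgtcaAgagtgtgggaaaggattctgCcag
Osr2: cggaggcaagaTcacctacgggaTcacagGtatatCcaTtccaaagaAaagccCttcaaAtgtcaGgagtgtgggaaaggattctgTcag
The Osr1 stretch spans coding bases 637 to 726, in exon 2 (chr12:9579765-9579793) and exon 3 (chr12:9580490-9580550), and the Osr2 stretch spans coding bases 628 to 717, in exon 1 (chr15:35300927-35300955) and exon 2 (chr15:35301912-35301972). They were identical at 80 of 90 bases (88.9%), and 10 of the 10 differences lay at the third position of a codon. The longest run of bases found in transcripts of both genes was 23 bases. The same search gave 22 bases for Msx1 and its relative Msx2, and 26 bases for Pax9 and its relative Pax1. Fragments longer than these runs hold bases that differ between the relatives.

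The 4 genes lie at separate loci. Pax9 (ENSMUSG00000001497.18) lies at chr12:56691767-56712822 on the plus strand of GRCm38, Msx1 (ENSMUSG00000048450.10) at chr5:37820485-37824583 on the minus strand, Osr1 (ENSMUSG00000048387.8) at chr12:9570116-9581500 on the plus strand and Osr2 (ENSMUSG00000022330.5) at chr15:35296098-35303305 on the plus strand. Only Pax9 and Osr1 overlapped other annotated genes, in each case on the opposite strand, and the counting used strand. Pax9 shared 1198 bases with Gm15524, which had 14 to 67 counts per library, and 189 bases with Slc25a21, which had 22 to 71, against 941 to 6575 counts for Pax9. Osr1 shared 470 bases with 1700022H16Rik, which had 0 to 2 counts. Msx1 had 149 to 7491 counts per library, Osr1 490 to 5583 and Osr2 736 to 4914. In percentage points, the spread between the 3 libraries of a stage exceeded counting error by the most for Msx1 at P0. The coefficient of variation there was 127%, against 5.92% from counting. The excess was least for Osr1 at P0, with 4.21% against 3.95%. As a multiple of counting error, Msx1 at E15.5 had a larger spread than Msx1 at P0, with 66.9% against 2.26%.

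The libraries held 21470759 to 69019565 counts, with a median of 61027072, and a gene with 3 counts had 0.0435 to 0.140 CPM (counts on the scale of a common library total). Mesenchyme markers (Pdgfra, Prrx1, Prrx2, Twist1 and Twist2) and epithelium markers (Epcam, Cdh1, Trp63, Krt5, Krt14 and Esrp1) were above 3 counts in every library, so both tissues of the palate were represented. Other tissues were present in amounts that changed with stage: 5 skeletal muscle markers summed to 177 to 323 CPM at E13.5 and 3690 to 20886 CPM at P0, and 5 osteoblast markers to 52.4 to 116 CPM and 1086 to 2027 CPM. E14.5 library 1 stood apart, with 1339 CPM of brain and choroid plexus markers and 329 CPM of Hoxa4, Hoxa5, Hoxb4, Hoxb5 and Hoxc5 together. E14.5 library 3 had 730 CPM of the brain list. On that list P0 libraries 1, 2 and 3 had 6.38, 378 and 149 CPM. The 4 Y-linked genes summed to 0.151 to 0.332 CPM in the 3 E16.5 libraries and reached 130 to 190 CPM in at least 1 library of each other stage. Their lowest library had 0.401 CPM at E13.5, 0.337 at E15.5 and 0.457 at P0, but 88.1 at E14.5. The sex of the pools thus differed within E13.5, E15.5 and P0 and was partly confounded with the stage E16.5. Its part in the values below was not tested.

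Osr1 and Osr2 messages fell between E13.5 and birth, by log2 fold changes of -1.46 and -1.12. For Pax9 and Msx1 no change between stages passed the test, with -0.68 (SE 0.39) and -1.57 (SE 0.86) over the same span. A difference in course between the 4 genes was not shown. None of the 6 ratios among these genes passed an exact permutation test across stages (adjusted p 0.771 to 0.830). Each of the 4 genes had its highest stage mean at E13.5. Across the 5 stages, 2 of the 4 genes were called at an adjusted p under 0.05, a share near the 59.1% of all 22151 tested genes. Levels are given as CPM with library totals scaled by edgeR's trimmed mean of M (TMM) method, library numbers are those of the titles and no label links them across stages, and tests are edgeR's quasi-likelihood test with Benjamini-Hochberg adjustment over all tested genes.

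**Figure D1:**
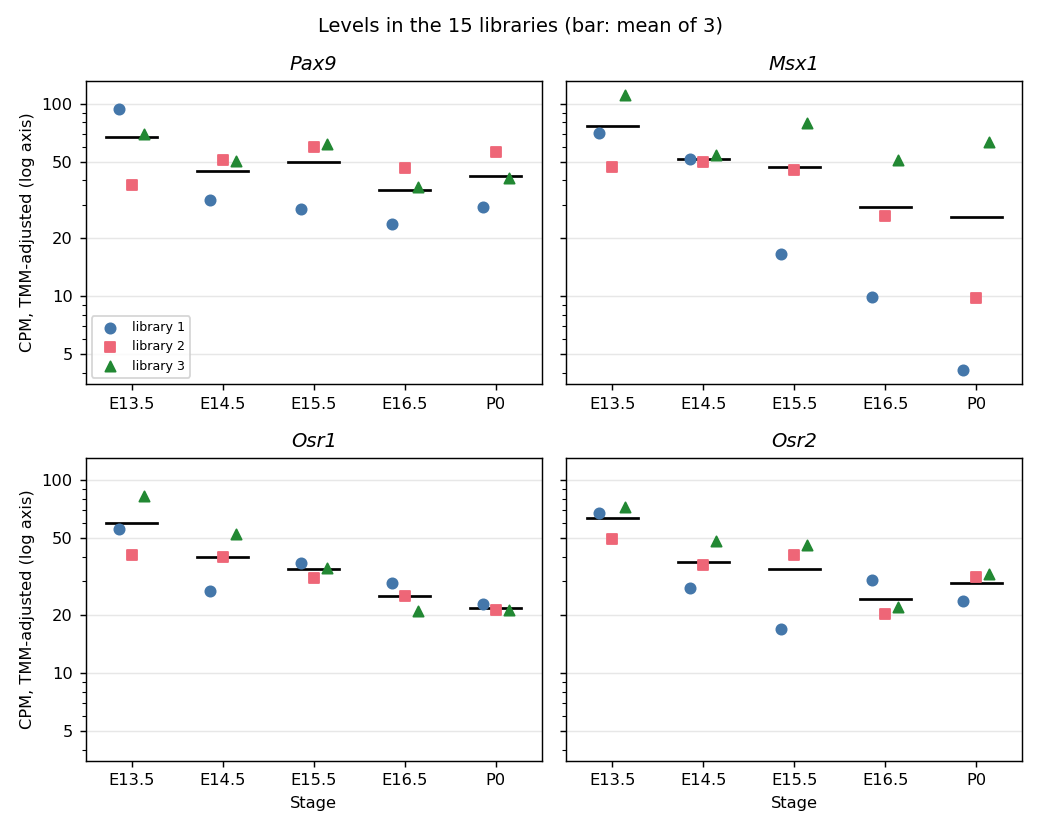
TMM-adjusted CPM (log axis) of Pax9, Msx1, Osr1 and Osr2 in the 15 libraries by stage; symbols are the 3 libraries of a stage and bars their means. Osr1 and Osr2 at P0 lie below all E13.5 libraries, while the 3 Msx1 libraries at P0 run from 4.13 to 63.4 CPM.

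Osr1 had 55.9, 41.1 and 82.9 CPM in the 3 E13.5 libraries, 26.7, 40.03 and 52.9 at E14.5, and 37.2, 31.1 and 35.2 at E15.5. It had 29.4, 25.1 and 20.99 CPM at E16.5 and 22.9, 21.3 and 21.3 at P0. Every P0 library was below every E13.5 library, and the E16.5 libraries were all below the E15.5 libraries, while the other neighbouring stages overlapped. The stage means were 59.99 ± 21.2 (SD, n = 3), 39.9 ± 13.1, 34.5 ± 3.12, 25.2 ± 4.20 and 21.8 ± 0.919 CPM, in the order of development, a 2.75-fold range. The P0 level was lower than that of E13.5 by a log2 fold change of -1.46 (SE 0.26), with an adjusted p of 0.000568 in edgeR's quasi-likelihood test, and the adjusted p across the 5 stages was 0.00233. At P0 the coefficient of variation of Osr1 over the 3 pools was 4.21%, at the 3.399th percentile of 11856 genes with a mean of at least 10 CPM and close to the 3.95% that counting alone gives. At E13.5 it was 35.3%, at the 91.5th percentile, with 1.61% from counting.

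Osr2, which in mutants is needed for the growth and elevation of the shelves, had 67.99, 49.9 and 73.0 CPM at E13.5, 27.8, 36.6 and 48.7 at E14.5, and 16.9, 40.98 and 46.3 at E15.5. It had 30.4, 20.4 and 22.0 CPM at E16.5 and 23.7, 31.4 and 32.7 at P0. Every E13.5 library lay above every library of the later stages. From E14.5 to P0 the neighbouring stages overlapped. The stage means were 63.6 ± 12.2, 37.7 ± 10.5, 34.8 ± 15.7, 24.3 ± 5.37 and 29.3 ± 4.90 CPM (SD, n = 3), with the lowest at E16.5, 2.62-fold below E13.5. The P0 level was lower than that of E13.5 by a log2 fold change of -1.12 (SE 0.33), with an adjusted p of 0.0117 in edgeR's quasi-likelihood test, and across the 5 stages the adjusted p was 0.0180. The Osr2 calls depended on single libraries: the adjusted p across stages was 0.0638 without E13.5 library 1 and 0.0706 without E13.5 library 3, and that of P0 against E13.5 was 0.0586 (log2 fold change -0.95) without P0 library 1.

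In P0 against E13.5, Osr1 and Osr2 were thus 2 of 4 genes called, both lower, beside 56.6% of all tested genes called and 26.8% called lower. Ranges that did not overlap, with P0 lower, were found for the same 2 genes and for 28.9% of all tested genes. In bulk samples, fewer cells that express a gene and less of its RNA per cell cannot be told apart.

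Pax9 had 94.2, 38.0 and 69.4 CPM at E13.5, 31.7, 51.2 and 50.7 at E14.5, and 28.5, 59.4 and 61.7 at E15.5. It had 23.8, 46.4 and 36.8 CPM at E16.5 and 29.0, 55.9 and 41.0 at P0. E13.5 library 2, at 38.0 CPM, lay within the range of the later stages, and stages next to each other in the order of means overlapped throughout. The stage means were 67.2 ± 28.2, 44.6 ± 11.1, 49.9 ± 18.6, 35.7 ± 11.4 and 41.9 ± 13.5 CPM (SD, n = 3). The difference of P0 from E13.5 was -0.68 on the log2 scale (SE 0.39, adjusted p = 0.151 in edgeR's quasi-likelihood test), and the adjusted p across the 5 stages was 0.280. Library 1 was the highest for Pax9 at E13.5 and the lowest in each later stage.

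Msx1 had 70.7, 46.7 and 111 CPM at E13.5, 51.5, 49.9 and 54.0 at E14.5, and 16.6, 45.3 and 79.6 at E15.5. It had 9.97, 26.0 and 50.9 CPM at E16.5 and 4.13, 9.76 and 63.4 at P0. The 3 libraries of E14.5 were nearly equal, while those of each other stage spread widely. From E15.5 on library 1 was lowest and library 3 highest each time. The stage means were 76.2 ± 32.6, 51.8 ± 2.09, 47.2 ± 31.6, 29.0 ± 20.6 and 25.7 ± 32.7 CPM (SD, n = 3). The P0 mean was 2.96-fold below that of E13.5, with a log2 fold change of -1.57 (SE 0.86), and this did not pass the test (adjusted p = 0.136 in edgeR's quasi-likelihood test). Across the 5 stages the adjusted p was 0.422.

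Leaving out 1 library changed the Msx1 result. Without P0 library 3, the log2 fold change of P0 from E13.5 was -3.42 with an adjusted p of 0.00368 in edgeR's quasi-likelihood test, and the adjusted p across the 5 stages was 0.0259. Between its lowest and highest library Msx1 differed 15.3-fold at P0, 5.11-fold at E16.5 and 4.80-fold at E15.5. In the same order its coefficient of variation was 127%, 71.3% and 66.9%, at the 99.3rd, 97.6th and 98.2nd percentile of the 11856 genes. At E13.5 the libraries differed 2.38-fold, with a coefficient of variation of 42.8%, at the 94.3rd percentile. Only at E14.5 was the coefficient small, 4.03%, at the 14.3rd percentile.

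At E16.5 and P0, Msx2 and Shh were highest in the same library as Msx1. Msx2, the nearest relative of Msx1 and a gene of dental and craniofacial mesenchyme and epithelium, had 1.60, 7.41 and 30.3 CPM at E16.5 and 3.38, 0.854 and 35.7 at P0. Shh, a ligand made in oral and dental epithelium, had 0.777, 12.7 and 69.02 CPM at E16.5 and 1.33, 0.945 and 56.3 at P0. Library 3 was thus the highest for all 3 genes at both stages, but the earlier stages differed. Shh was lowest in library 3 at E13.5 (7.20, 7.73 and 4.07 CPM) and at E14.5 (6.64, 8.51 and 5.74 CPM), where Msx1 was highest, and Msx2 at E15.5 (13.05, 8.26 and 14.8 CPM) had another order than Msx1. The 6 epithelium markers summed to 334, 866 and 1406 CPM at E15.5, 524, 1016 and 1871 at E16.5 and 686, 1154 and 2543 at P0. In 4 of the 5 stages (all but E14.5) the 3 libraries had the same order by Msx1 as by this sum, of which Krt5 alone held 1217 of 1871 CPM in E16.5 library 3. The single markers differed: the order was shared in 4 stages for Trp63 and Esrp1, in 3 for Krt5 and Krt14 and in 2 for Epcam and Cdh1. At E16.5 Epcam (113, 58.8 and 70.4 CPM) and Cdh1 (137, 105 and 116 CPM) were highest in library 1, where Msx1 was lowest. Osr2 also shared its order with the epithelium sum in 4 stages (all but E16.5), while Osr1 did so in 2 and Pax9 in 1. With the mesenchyme sum Msx1 and Osr2 each shared their order in 3 stages. Osr2 also did so with the cartilage sum in 3 stages, and Osr1 with the macrophage sum in 3. Orders of only 3 libraries can match by chance, and such matches over all genes were not counted. Msx1 shared its order with the osteoblast sum in 3 stages, and with the sum of 5 enamel and dentine genes in 4 stages. Among the latter Ambn alone shared it in 4 stages, while Amelx shared it in 0 stages and at E16.5 ran the other way (0.863, 0.830 and 0.343 CPM). That enamel and dentine sum was only 0.620 to 8.66 CPM, and 4 of its 5 genes at E13.5 and 1 of 5 at P0 were at or under 3 counts in every library. The part of epithelium or tooth tissue in the Msx1 values was not tested.

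**Figure D2:**
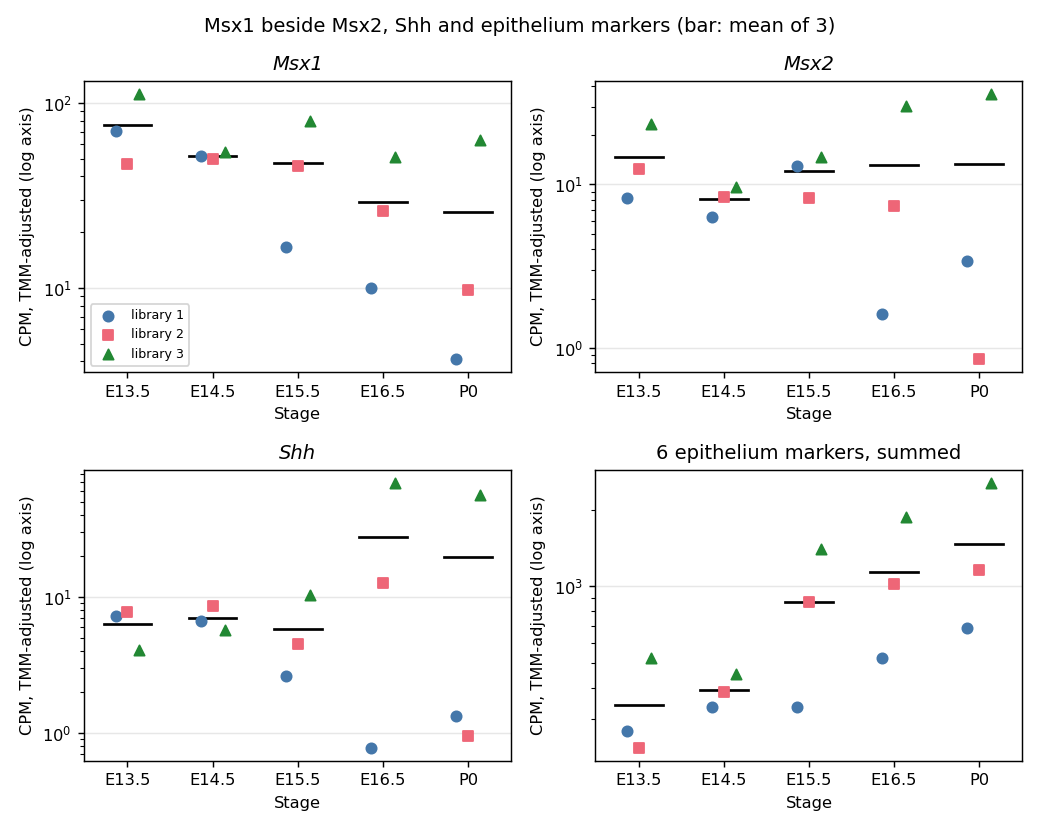
TMM-adjusted CPM (log axes) of Msx1, Msx2, Shh and the sum of 6 epithelium markers in the 15 libraries; symbols are libraries and bars means of 3. At E16.5 and P0 library 3 is the highest in all 4 panels, for Msx1 at 50.9 and 63.4 CPM.

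E15.5 library 1 was low for 3 of the 4 genes. It had the lowest level of its stage for Pax9 (28.5 CPM), Msx1 (16.6 CPM) and Osr2 (16.9 CPM), and the highest for Osr1 (37.2 CPM). Its epithelium sum was the lowest of the stage at 334 CPM, its cartilage sum was also the lowest at 598 CPM against 732 and 1748 CPM, and its muscle sum was the highest at 3617 CPM against 1332 and 1899 CPM. Its mesenchyme sum was 600 CPM against 627 and 639 CPM. Its sum of nasal and olfactory epithelium markers (Omp, Gnal, Foxj1, Bpifa1 and Bpifb1) was 197 CPM against 593 and 649 CPM. Gnal alone of these was highest there, at 101 CPM against 61.9 and 49.9 CPM. E14.5 library 1 was also the lowest of its stage for Pax9 (31.7 CPM), Osr1 (26.7 CPM) and Osr2 (27.8 CPM), though not for Msx1 (51.5 CPM). Its mesenchyme sum was 356 CPM against 623 and 746 CPM, and its cartilage sum 422 CPM against 2176 and 2731 CPM. E13.5 library 2 was the lowest of its stage for each of the 4 genes, and P0 library 1 for Pax9, Msx1 and Osr2. The part of these tissues in the low values was not tested.

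Step by step, no change of the 4 genes passed an adjusted p of 0.05, by edgeR or by DESeq2. From E13.5 to E14.5, when the shelves rise and meet, the log2 fold changes were -0.59 for Pax9, -0.56 for Msx1, -0.59 for Osr1 and -0.75 for Osr2, with adjusted p of 0.287 to 0.806 in edgeR's quasi-likelihood test. Osr1 and Osr2 were below 0.05 only before adjustment. In that step edgeR called 0.00903% of all tested genes, so its calls were rare for any gene, while DESeq2 called 1000 genes. Ranges that did not overlap, found here for Osr2 alone, occurred in 29.2% of genes.

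From E14.5 to E15.5, when the shelves have fused and bone forms, the log2 fold changes lay between -0.21 for Osr1 and 0.16 for Pax9, with adjusted p of 0.575 to 0.922 in edgeR's quasi-likelihood test. This step had 26.1% of all tested genes called by edgeR, and 7208 genes by DESeq2. Of these 4 genes 0 were called by edgeR or DESeq2, also at an unadjusted p under 0.05 in edgeR. The signs of these 4 small differences changed with single libraries: they were turned for Pax9 without E14.5 library 1 or E15.5 library 3, for Msx1 without E15.5 library 1, for Osr1 without E14.5 library 3 and for Osr2 without E14.5 library 3 or E15.5 library 1. From E15.5 to E16.5 the differences were -0.48 for Pax9, -0.70 for Msx1, -0.45 for Osr1 and -0.52 for Osr2 (adjusted p from 0.323 to 0.661, edgeR). In that step edgeR called 1.41% of genes and DESeq2 2094 genes. Osr1 alone had ranges that did not overlap there, as had 31.2% of genes. From E16.5 to P0 the differences were 0.23, -0.18, -0.20 and 0.27 in the same order of genes (adjusted p from 0.783 to 0.956, edgeR). There edgeR called 0.352% of genes and DESeq2 663 genes. The last signs were also turned by single libraries, for Pax9 without P0 library 2 and for Msx1 without E16.5 library 3, P0 library 1 or P0 library 2.

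To set the genes beside each other, counts were divided by gene length and scaled to a fixed sum per library (TPM, a level per length). At E13.5 the mean level per length was 108 ± 34.9 TPM (SD, n = 3) for Osr1, 91.8 ± 36.4 for Msx1, 65.9 ± 12.4 for Osr2 and 50.2 ± 22.5 for Pax9. At P0 it was 29.7 ± 3.35 TPM for Osr1, 25.9 ± 34.9 for Msx1, 23.3 ± 7.40 for Pax9 and 22.9 ± 6.11 for Osr2. These used the summed exon length in the deposited table, and part of the order depends on that choice. With that length Osr1 was above Osr2 in 15 of 15 libraries, by 0.75 on average on the log2 scale, and with the length of the transcript with the longest coding sequence it was above Osr2 in 1 of 15, with an average of -0.66. Msx1 against Osr1 changed likewise from -0.55 to 0.09, and Msx1 against Osr2 from 0.20 to -0.57. Pax9 was below Osr1 in 14 of 15 libraries with both lengths, by -0.87 and -0.65 on the log2 scale.

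Ratios of 2 genes within a library do not depend on its depth, and their changes between stages do not depend on gene length. For none of the 6 ratios among the 4 genes did the differences between stages pass an exact permutation test over all 1401400 ways to divide 15 libraries into 5 groups of 3. The lowest was Pax9 to Msx1, whose mean log2 ratio ran from -0.96 at E14.5 to 0.86 at P0 (exact permutation p = 0.240, adjusted p = 0.771 over the 6 ratios). The P0 value rested on libraries 1 and 2, at 2.09 and 1.81, while library 3 was at -1.34. The steadiest was Osr1 to Osr2, with stage means from 0.40 to 0.92 and 1 library apart, E15.5 library 1 at 1.94 (exact permutation p = 0.643, adjusted p = 0.771). Adjusted p for the 6 ratios ranged from 0.771 to 0.830, which does not show that the ratios were constant.

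Relative to the 5 mesenchyme markers of the same library, no change of the 4 genes across stages passed the test. The mesenchyme sum was 632 to 1105 CPM at E13.5, 356 to 746 at E14.5, 600 to 639 at E15.5, 305 to 422 at E16.5 and 330 to 381 at P0. The log2 ratio of Osr1 to this sum had stage means of -3.93, -3.84, -4.18, -3.79 and -4.01, a range of 0.39, against the fall of 1.46 in its CPM. Its exact permutation p was 0.426, beside 0.357 for Pax9, 0.703 for Msx1 and 0.449 for Osr2, and adjusted p over 8 ratios were 0.514 to 0.703. Without E16.5 library 3 the range for Osr1 was 0.66 with an adjusted p of 0.0132 (exact permutation test).

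Relative to the 6 epithelium markers, the 4 genes fell over the stages, with a lower mean at each step. The mean log2 ratio to that sum went from -2.16 ± 0.203 (SD, n = 3) at E13.5 to -2.91 ± 0.187, -4.24 ± 0.0956, -5.40 ± 0.274 and -6.52 ± 1.07 at P0 for Msx1 (exact permutation p = 7.85e-06, adjusted p = 6.28e-05 over 8 ratios). At E15.5 the 3 Msx1 ratios were -4.33, -4.26 and -4.14, although the CPM of Msx1 differed 4.80-fold between these libraries. Without P0 library 3 the range of the Msx1 stage means was 4.96 in place of 4.36. For Pax9 the ratio went from -2.35 at E13.5 to -4.96 at P0 (exact permutation p = 0.000937, adjusted p = 0.00250). For Osr2 it went from -2.35 to -5.44 (exact permutation p = 0.000814, adjusted p = 0.00250), and for Osr1 from -2.48 to -5.85 (exact permutation p = 0.00619, adjusted p = 0.0124). The epithelium sum itself was 233 to 525 CPM at E13.5 and 686 to 2543 CPM at P0, so these ratios hold the rise of the markers as well as the levels of the 4 genes. The keratins had the largest part in that rise, from a mean of 94.0 to 806 CPM for Krt5 and from 57.1 to 258 CPM for Krt14, while the other 4 markers together went from 192 to 397 CPM. With those 4 markers alone, an alternative chosen after seeing the data, the ranges of the stage means were 1.65 for Pax9, 3.404 for Msx1, 2.42 for Osr1 and 2.13 for Osr2, against 2.61, 4.36, 3.38 and 3.09. Exact permutation tests then gave adjusted p of 0.0148, 0.0224, 0.0192 and 0.000206, and the Msx1 ratio at E15.5 had an SD of 0.365 in place of 0.0956. Their size compares a single gene with a sum and only their differences between stages are read.

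**Figure D3:**
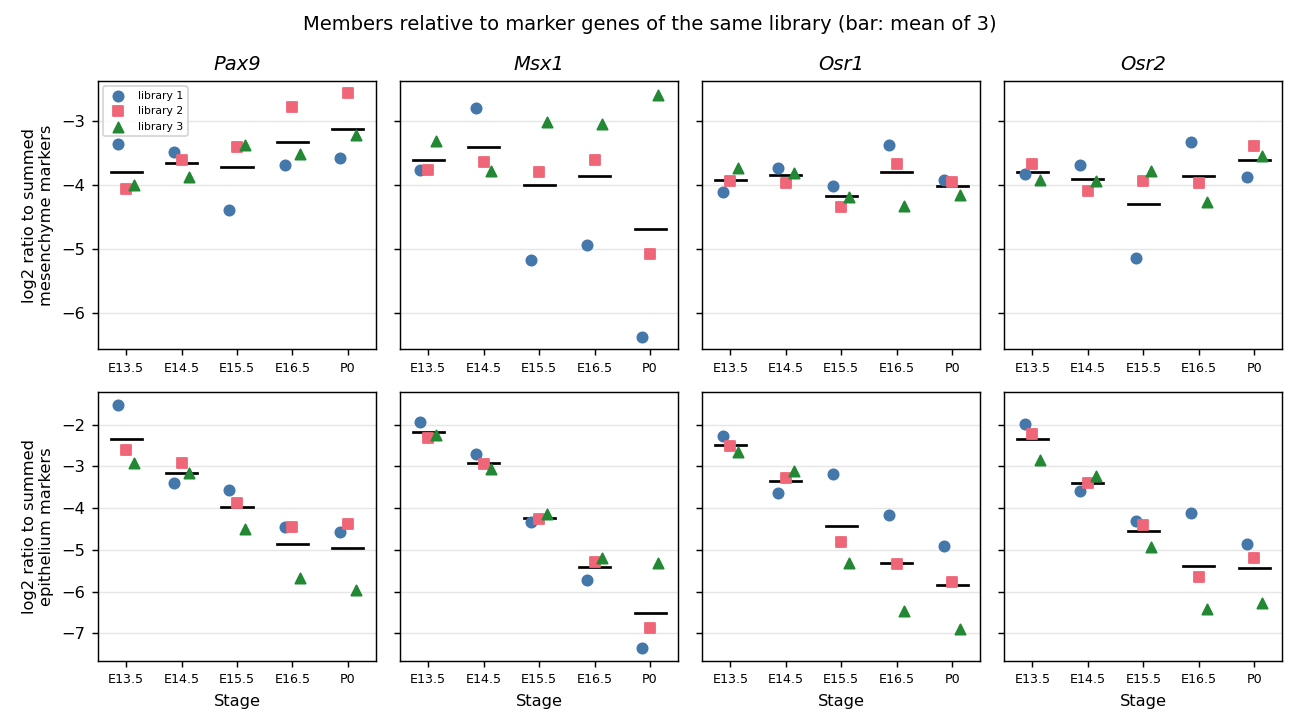
Log2 ratio of Pax9, Msx1, Osr1 and Osr2 to the summed CPM of 5 mesenchyme markers (top) and 6 epithelium markers (bottom) of the same library, by stage; symbols are libraries and bars means of 3. The top panels show no shared course over stages, and in the bottom panels the means go down from E13.5 to P0, for Msx1 from -2.16 to -6.52.

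The genes whose profiles over the 15 libraries were most like those of the 4 genes were found among 11597 protein-coding genes with a mean of at least 10 CPM, as the smallest root mean square difference of log2 CPM after each gene was centred on its mean. For Osr1 they were Cxcl12 (0.18), Ephb3 (0.21), Mmp11 (0.23), Zbed3 (0.23) and Ednra (0.24), beside a median of 0.62 over all genes. Cxcl12 is a chemokine, Ephb3 an ephrin receptor, Mmp11 a stromal metalloproteinase and Ednra an endothelin receptor of neural crest. For Osr2 they were Inava (0.28), Eya1 (0.31), Wwp2 (0.32), Hmga1 (0.34) and Twist1 (0.34), where the median was 0.67. Twist1, a basic helix-loop-helix factor of mesenchyme, is also 1 of the 5 mesenchyme markers.

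For Pax9 the nearest profiles were Arid5b (0.31), Tgif1 (0.31), Syde2 (0.31), Frk (0.32) and Bmp2 (0.32), with a median of 0.63, and Bmp2 is also on the list of ligands below. For Msx1 they were Igsf9 (0.46), Frem1 (0.50), Lhx6 (0.56), Cbx2 (0.58) and Emx2 (0.60), with a median of 1.30, and Lhx6, a LIM homeobox factor of oral mesenchyme, is on the list of partners below. Among the 4 genes themselves the difference was 0.41 between Osr1 and Osr2, 0.42 between Pax9 and Osr2 and 0.54 between Pax9 and Osr1. Msx1 was 1.04 to 1.10 from the other 3, below its own median of 1.30 but above the medians of Pax9 (0.63), Osr1 (0.62) and Osr2 (0.67). A gene with no change at all would stand 0.53 from Pax9, 0.57 from Osr1, 0.60 from Osr2 and 1.29 from Msx1. The 0.54 between Pax9 and Osr1 was thus above the value of such a gene for Pax9 and below that for Osr1. The 1.04 to 1.10 of Msx1 was above its values for Pax9, Osr1 and Osr2 and below that for Msx1. None of the 4 was among the 5 nearest genes of another. The genes named depend on the measure. By Pearson correlation 2 of the 5 were shared for Pax9, 2 for Msx1, 3 for Osr1 and 1 for Osr2. Among genes with a mean of at least 1 CPM, 3 of the 5 were shared for Osr2. These values describe 15 libraries that share stage, depth and tissue makeup, and carry no test.

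**Figure D4:**
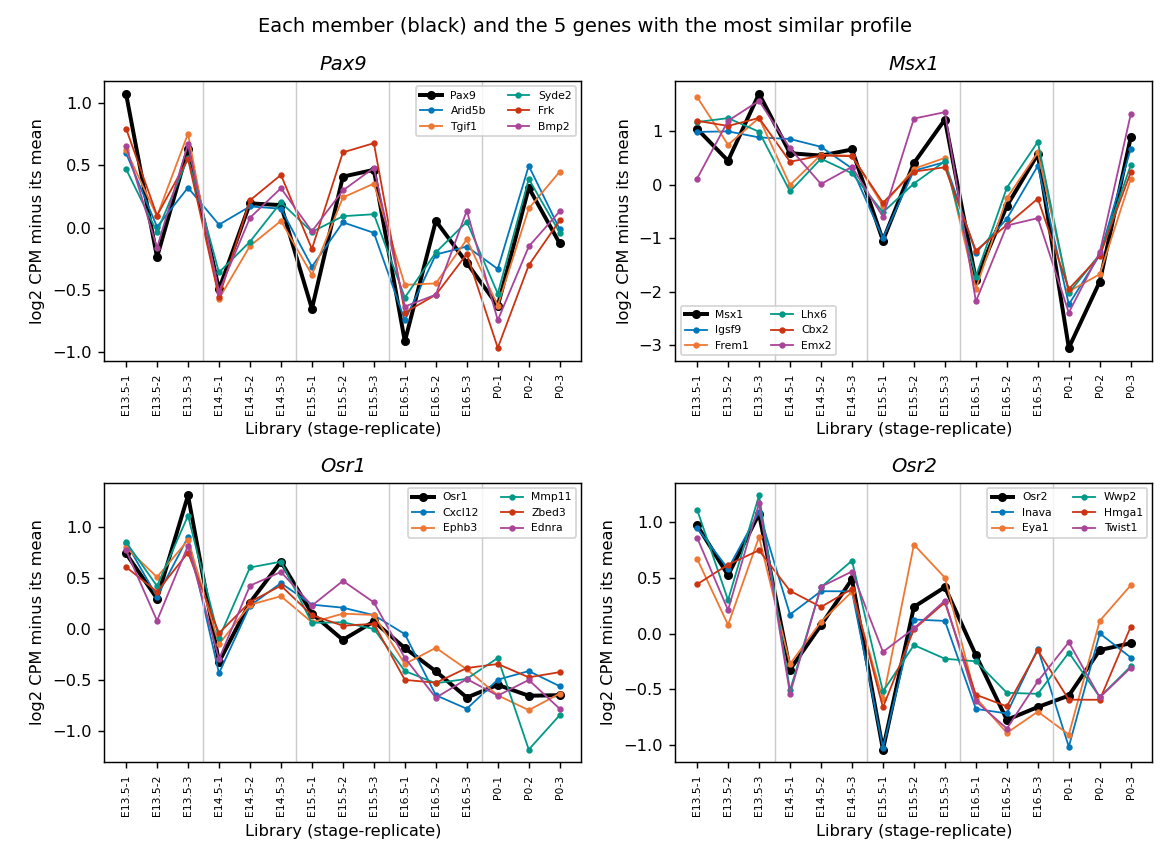
Log2 CPM minus the gene's own mean (y axis) in each of the 15 libraries (x axis) for Pax9, Msx1, Osr1 and Osr2 (black) and the 5 genes with the most similar profile (colours). The Msx1 panel spans the widest range, and its 5 neighbours share the low values of library 1 at E15.5 and E16.5 and of libraries 1 and 2 at P0.

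The nearest relatives, Pax1 and Msx2, did not pass the test in any contrast. Pax1, which patterns the pharyngeal pouches and vertebral column, had 17.6, 31.2 and 43.6 CPM at E13.5 and 21.02, 30.4 and 2.96 at P0, a log2 fold change of -0.76 (adjusted p = 0.435, edgeR). Its mean level per length was 25.4 TPM at E13.5 and 10.7 at P0, below the mean of Pax9 at both stages with the deposited lengths. Msx2 had 8.26, 12.5 and 23.5 CPM at E13.5 and a log2 fold change of -0.16 to P0 (adjusted p = 0.911, edgeR). Its mean level per length was 16.6 TPM at E13.5 and 12.8 at P0, against 91.8 and 25.9 for Msx1. In the library with the most Msx2, P0 library 3, it had 35.1 TPM and Msx1 66.1 TPM.

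Around the 4 genes, 41 genes in 6 lists by role were counted: ligands, receptors and responses, relatives in the same family, partner transcription factors of the shelf, Wnt inhibitors and osteogenic genes. In P0 against E13.5, 5 of the 41 rose and 15 fell, with a median log2 fold change of -0.74 where that of all tested genes was 0.03. All tested genes were called higher in 29.8% and lower in 26.8%.

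Of 9 ligands, 5 fell and 1 rose, with a median of -1.14. Wnt9b, an epithelial Wnt ligand, fell from 2.94 ± 1.80 (SD, n = 3) to 0.514 ± 0.387 CPM (log2 fold change -2.47, adjusted p = 0.00571, edgeR), and by -3.16 on the log2 scale without P0 library 3. Inhba, which encodes the activin subunit, fell from 22.8 ± 6.67 to 6.07 ± 3.48 CPM (log2 fold change -1.91, adjusted p = 0.0109, edgeR), and the call was lost without P0 library 1 (adjusted p = 0.0502). Eda, the ligand ectodysplasin, rose from 14.4 ± 2.46 to 22.7 ± 4.06 CPM (log2 fold change 0.66, adjusted p = 0.0145, edgeR), and this call was lost without E13.5 library 2 (adjusted p = 0.0705). Bmp4, a ligand that Msx1 helps to maintain, was at 29.3 ± 10.2 CPM at E13.5 and 29.2 ± 5.42 at P0.

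Of 6 receptors and response genes, 2 fell, the Bmp receptor Bmpr1a (log2 fold change -0.77, adjusted p = 0.00215, edgeR) and the Hedgehog transducer Smo (log2 fold change -0.74, adjusted p = 0.00475, edgeR). Of 5 relatives, Pax3 and Msx3 fell. Pax3, a neural crest and muscle precursor gene, went from 28.1 ± 6.64 to 1.44 ± 1.00 CPM (log2 fold change -4.27, adjusted p = 0.00185, edgeR), and the change was -4.91 without P0 library 3. Msx3, a gene of the dorsal neural tube, was at 3.37, 4.83 and 0.178 CPM at E13.5, 9.78, 4.72 and 3.01 at E14.5 and no higher than 0.196 in any later library. Its fitted fold changes depend on the prior count and are not given, and its adjusted p was 0.00149 at P0 against E13.5 and 0.00217 at E15.5 against E14.5 (edgeR). The brain and choroid plexus sum of the 3 E14.5 libraries was 1339, 21.2 and 730 CPM, and the part of neural tissue in the Msx3 values was not tested.

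Of 10 partner transcription factors, 4 fell and 0 rose, with a median of -0.95. Tbx22, a T-box gene mutated in human X-linked cleft palate, fell from 24.7, 16.7 and 16.7 CPM at E13.5 to 0.277, 0.152 and 1.79 at P0 (log2 fold change -4.71, SE 0.80, adjusted p = 0.000357, edgeR). Leaving out each library in turn gave -6.25, without P0 library 3, to -4.20 for Tbx22. Shox2, a homeobox gene of the anterior palate, fell from 62.7 ± 9.26 to 9.81 ± 6.74 CPM (log2 fold change -2.68, adjusted p = 0.000482, edgeR), and the change was -3.26 without P0 library 3. Lhx6 and Lhx8 were the other two, and their calls rested on single libraries. The adjusted p for Lhx6 was 0.0518 to 0.0956 without E13.5 library 1 or 2 or P0 library 1 or 2, and for Lhx8 it was 0.0566 without P0 library 1 and 0.0532 without P0 library 2 (edgeR).

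Of 4 Wnt inhibitors, Dkk2 fell (log2 fold change -1.67, adjusted p = 0.000303, edgeR). Sost, which encodes sclerostin, rose from 0.422 ± 0.252 to 1.00 ± 0.349 CPM (log2 fold change 1.19, adjusted p = 0.0121, edgeR), with overlapping ranges, and the adjusted p was 0.0552 without E13.5 library 1 and 0.0541 without E13.5 library 2. Of 7 osteogenic genes, 3 rose and 1 fell. Alpl, the alkaline phosphatase of mineralizing tissue, rose from 36.98 ± 13.2 to 290.5 ± 124 CPM (log2 fold change 2.97, adjusted p = 3.8e-05, edgeR), and Sp7, the osteoblast factor osterix, from 21.2 ± 9.47 to 83.3 ± 31.6 CPM (log2 fold change 1.97, adjusted p = 0.00120, edgeR). Sema3a, a semaphorin, fell (log2 fold change -1.58, adjusted p = 0.000664, edgeR).

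In E15.5 against E14.5, the step in which none of the 4 genes was called, 3 of the 41 genes rose and 4 fell, beside 12.7% and 13.4% of all tested genes. Alpl (log2 fold change 2.42, adjusted p = 0.00116), Sp7 (2.07, adjusted p = 0.00412) and Sost (1.67, adjusted p = 0.00612) rose, all by edgeR. Wnt9b (log2 fold change -2.99, adjusted p = 0.00631), Wnt3 (-1.89, adjusted p = 0.00704), Msx3 and Shox2 (-1.47, adjusted p = 0.0314) fell, all by edgeR. The change of Wnt9b was -3.85 without E15.5 library 3. Shox2 lost its call without any 1 of E14.5 libraries 1 and 2 and E15.5 libraries 1, 2 and 3, with adjusted p from 0.0558 to 0.115. In E16.5 against E15.5 only Dkk2 was called (log2 fold change -1.23, adjusted p = 0.0483, edgeR), and in P0 against E16.5 only Sost (-1.90, adjusted p = 0.0484, edgeR), and both calls were lost without any 1 library of the stages compared, with adjusted p from 0.0648 to 0.160 and from 0.0539 to 0.177. In E14.5 against E13.5 edgeR and DESeq2 called 0 of the 41, with 2 at an unadjusted p under 0.05 in edgeR.

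**Figure D5:**
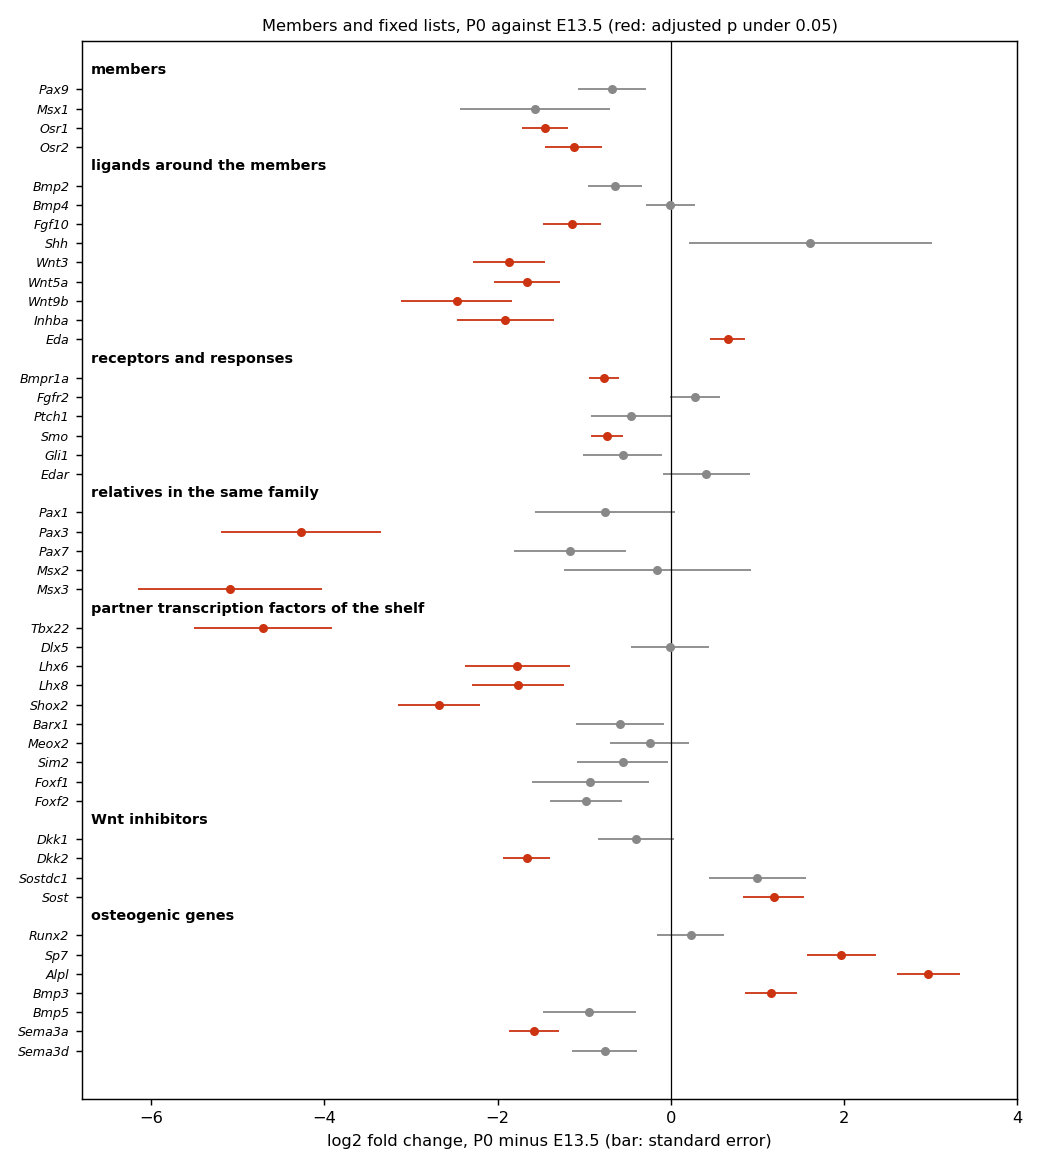
Log2 fold change of P0 minus E13.5 (points) with its standard error (bars) for Pax9, Msx1, Osr1, Osr2 and the 41 genes of 6 lists; red marks an adjusted p under 0.05. Most called genes of the lists lie left of 0 (15 lower and 5 higher), as do Osr1 at -1.46 and Osr2 at -1.12, and Msx1 has a wide bar around -1.57.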

How the data were processed

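The authors deposited whole-number counts of read pairs per gene for all 15 libraries in 1 table, made per the file headers with featureCounts 2.0.1 in reverse-stranded paired mode on GENCODE M18. The submitters' processing notes name cutadapt 3.4, FastQC 0.11.9, Bowtie2, HISAT2 2.2.1, SAMtools 1.12, Subread 2.0.1 and mm10. Symbols came from GENCODE M21 (54165 of 54232 genes), and 99.8% of 52566 genes of the same version had identical GRCm38 positions. Stages came from the labels.

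Genes kept by filterByExpr (minimum count 10) were scaled by TMM. The model, in edgeR 4.0.16 under R 4.3.3, had a mean for each of 5 stages and used all 15 libraries (prior count 2, common biological coefficient of variation 0.332). Adjusted p values are by Benjamini-Hochberg over 22151 genes for each contrast, with a threshold of 0.05. Ratios used counts plus 1 and an exact permutation test of the differences among the 5 stage means, which has no direction and whose smallest possible p is 7.14e-07. Testing 3 libraries against 3 exactly cannot go below 0.10, so stage pairs were tested in the fit only. The floor of 3 counts covers counting error only. Deposited lengths are summed exon lengths (5056, 3097, 2066 and 3623 bases for Pax9, Msx1, Osr1 and Osr2).

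The genes, lists and tests were chosen with earlier results of these data known. Named from each list were the 2 largest called changes in each direction at P0 against E13.5 and at E15.5 against E14.5, with Pax1 and Msx2. Bmp4, Lhx6 and Lhx8 were named after their values were seen. On simulated counts for E15.5 against E14.5 (22151 genes), calls were made for 35.8% of 67 genes with a 2-fold change, for 92.5% of 67 with a 4-fold change and for 93.9% of 66 with an 8-fold change, against 0.0187% of 21414 genes left unchanged. The changed genes were drawn at random from those with a mean of at least 1 CPM and were far fewer than the 5773 called in the data. These rates need not hold for the data, or for a gene as variable as Msx1 (SE 0.84 in that step). Alternatives were DESeq2 1.42.0, other size factors, other filters, libraries thinned to the smallest total and a replicate block. Others were fits on just the 6 libraries compared, leaving out each library and Pearson correlation for the nearest profiles. Another gene length and an epithelium sum without keratins were added after seeing the data.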

Additional observations from a re-analysis of the deposited data

How the results depend on the processing

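Of 392 values of the 4 genes under alternatives (24 results), 373 kept their direction and side of the threshold, 3 lost and 3 gained a call, and 13 turned, none of them called. Osr1 in P0 against E13.5 passed 0.05 in 15 of 15 settings (log2 fold change -1.68 to -1.16, edgeR or DESeq2 adjusted p 1.34e-06 to 0.00594), Osr2 in 14, Msx1 in 2 and Pax9 in 0 (lowest adjusted p 0.0545). Leaving out each library gave -3.42 to -1.03 for Msx1 and -1.28 to -0.95 for Osr2 in that contrast, and ranges over the 5 stages of 1.21 to 3.42 for Msx1 and 1.28 to 1.55 for Osr2. It gave a range of 0.31 to 0.66 for the ratio of Osr1 to mesenchyme markers. For E15.5 against E14.5 it gave -0.040 to 0.43 for Pax9, -0.75 to 0.26 for Msx1, -0.44 to 0.037 for Osr1 and -0.38 to 0.20 for Osr2, and for P0 against E16.5 -0.039 to 0.46 for Pax9 and -2.05 to 0.51 for Msx1. In E15.5 against E14.5 upper-quartile normalization gave 0.0083 for Msx1 and 0.017 for Osr2, and thinning gave 0.0085 for Msx1. Upper quartiles moved the median of all genes there from 0.03 to 0.16 and the share of calls that were higher from 48.6% to 63.0%, and in P0 against E16.5 that share from 53.8% to 67.9%. The cause was not tested. With the coding transcript's length, chosen after seeing the data, the mean log2 ratios were 0.093 for Msx1 to Osr1, -0.57 for Msx1 to Osr2 and -0.66 for Osr1 to Osr2.

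No label says that a replicate number marks a shared litter or day, and same-numbered libraries deviated from their stage means with r of -0.30 to 0.55 (mean 0.06, 30 pairs), with 7 of 15 libraries correlating best with their own number. With the replicate block, Msx1 in P0 against E13.5 was -2.21 (edgeR adjusted p = 0.0131), and calls numbered 135 in E14.5 against E13.5 and 35 in P0 against E16.5.

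Counts of called genes depended on the setting. E14.5 against E13.5 had 2 (3538 at an unadjusted p under 0.05, edgeR), with 1000 in DESeq2, 6 without a filter, 1 at a mean of at least 1 CPM, 0 with thinning, 0 with only its 6 libraries (5089 unadjusted), and 0 to 28 leaving out a library. E15.5 against E14.5 had 5773, with 2320 to 5816 (2320 without E14.5 library 1, 3259 without E14.5 library 2, 2975 without E15.5 library 2, 3010 without E15.5 library 3). E16.5 against E15.5 had 312, with 2094 in DESeq2, 107 with thinning, 0 with 6 libraries (4267 unadjusted) and 0 to 504. P0 against E16.5 had 78, with 663 in DESeq2, 25 without a filter, 23 with thinning, 0 with 6 libraries (1129 unadjusted) and 10 to 216. Of the 41 list genes, 3 rose in E15.5 against E14.5, with 6 in DESeq2 and 5 with upper quartiles, with a mean of at least 1 CPM, with the replicate block or with 6 libraries. In P0 against E13.5, 5 rose, with 3 to 5 leaving out a library (3 without E13.5 library 2). Of 434 values of called list genes, 394 kept the call, 40 lost it and 0 turned.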
